A study of Homo sapiens with 8 samples.

Results

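The polo-like kinases PLK1, PLK2, PLK3 and PLK4 and the stress proteins GADD45A, GADD45B and GADD45G were followed at the RNA level after release of p53 from MDM2. The 7 genes were chosen by name, as the members of 2 gene families. They are 7 of the 18216 genes in the deposited table, and all 7 were among the 14074 genes with enough reads to be tested. PolyA RNA had been sequenced from passage 28 cultures of IMR90, which are human lung fibroblasts and the only line used. Every culture was kept at 3% oxygen and 5% CO2 in DMEM medium that held 10% FBS, was split to 300k cells/mL, and was treated a day later. One group of 2 libraries received DMSO, the solvent. The other 3 groups, also of 2 libraries each, received Nutlin-3a at 3 µg/mL for 6, 9 or 12 h. Nutlin-3a occupies the pocket of MDM2 that holds p53, and p53 then accumulates.

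Polo-like kinases are serine/threonine kinases that find their substrates through a C-terminal polo-box region. PLK1 drives entry into mitosis, spindle assembly and cytokinesis, and PLK4 sets the number of centrioles. PLK2 and PLK3 are instead known as early response kinases induced by growth factors, stress or DNA damage. The GADD45 proteins are small acidic proteins without enzymatic activity. They bind PCNA, CDK1 with cyclin B1, and the kinase MAP3K4, through which they can activate p38 and JNK. GADD45A and PLK2 and PLK3 are known p53 targets, whereas GADD45B is better known as a target of NF-kB and TGF-beta signalling.

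Gene reads ranged from 21.9 to 33.6 M (1e6) per library. Values are normalized counts, that is, gene reads over the size factor of the library, and 3 reads, taken as the floor, equal 2.46 to 3.75 of them. Replicates differed most in DMSO, where the log2 difference between them had an SD of 0.174 over 11461 genes, against 0.118 to 0.129 in the Nutlin-3a groups. The sources used here do not say how long DMSO cultures were kept or whether replicates were separate cultures. P-values therefore measure only the spread between these libraries, which may be technical. That spread was pooled over the groups and drawn in part from other genes, so it makes no allowance for the wider spread in DMSO. With a single DMSO group, exposure time cannot be told apart from culture or harvest time. All 12 fibroblast markers listed were above the floor, and summed to normalized counts of 899243 to 1123356. Of the epithelial markers in the table, CDH1 lay at 0.996 to 3.75, EPCAM at 17.3 to 28.9 and KRT18 at 1770.03 to 2940.4. The immune markers gave 0.914 to 5.77 for PTPRC and 736 to 982 for CD68, and 3 endothelial markers summed to 23.7 to 59.6. The 4 smooth muscle markers summed to 10404 to 12634, most of it ACTG2 at 7856 to 9488. CNN1 was at 2484 to 3446, while DES was at 17.2 to 25.4 and MYH11 at 23.9 to 54.7. MDM2, itself a p53 target, rose by 3.03, 3.10 and 3.13 on the log2 scale at 6, 9 and 12 h, and CDKN1A, which encodes the CDK inhibitor p21, by 3.47, 3.85 and 3.90.

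The 7 genes split into a pair that fell, a trio that rose and stayed high, 1 that rose briefly and 1 at the edge of detection. At 6 h, 4 members rose against DMSO, namely PLK2, PLK3, GADD45A and GADD45B, where 16.1% of all tested genes did. PLK1 and PLK4, 2 members, fell at 6 h, where 20.6% of all tested genes did. At 9 h, 3 rose and 2 fell, beside 16.2% and 19.1% of all genes. At 12 h, 3 rose and 2 fell, beside 18.5% and 21.4% of all genes. Calls rest on limma with Benjamini-Hochberg adjustment over all tested genes at a threshold of 0.05. The libraries of the groups did not overlap for 6 members at 6 h (62.7% of all genes), 7 at 9 h (64.2%) and 7 at 12 h (67.1%), so a lack of overlap alone sets no member apart. In bulk RNA, fewer cells of a kind and less RNA per cell cannot be told apart. By the F test over the 4 groups, 6 of the 7 members were called, beside 49.9% of all tested genes.

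**Figure D1:**
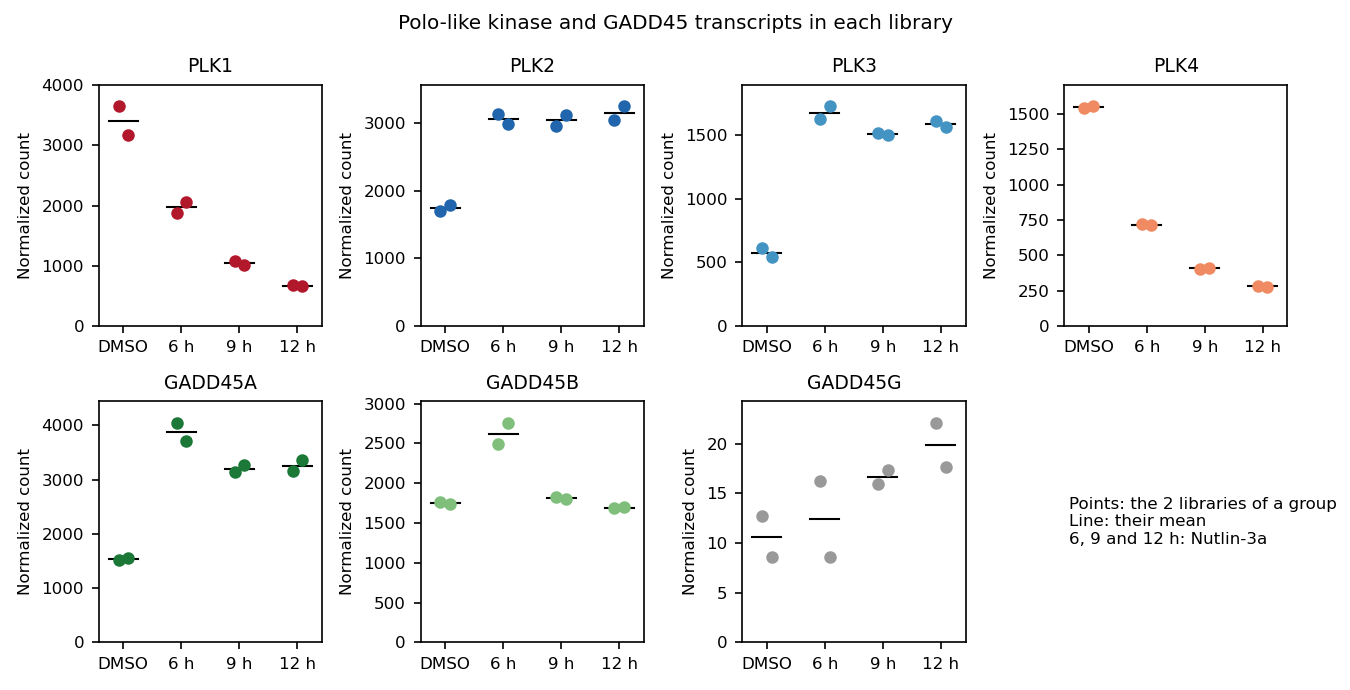
Normalized count of each member in each of the 8 libraries, on a linear axis from 0 in a panel of its own, by group (DMSO and Nutlin-3a for 6, 9 and 12 h). Points are libraries and lines are means of 2, and PLK1 and PLK4 descend from group to group while PLK2, PLK3 and GADD45A step up at 6 h and GADD45B returns to 1796 to 1828 at 9 h.

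PLK1 and PLK4, the 2 kinases of the dividing cell, are described first. The RefSeq promoters (GRCh38.p14) are shown for the short element TTTGAA, the cell cycle genes homology region (CHR), because both genes hold it near their start. CHR elements are known as docking sites of the MuvB core of the DREAM repressor and its activating counterparts. Capitals mark CHR, read on the opposite strand as TTCAAA in PLK4, and the CCAAT box of PLK1.
PLK1, plus strand, chr16:23678789-23678888, ending at the base before the start: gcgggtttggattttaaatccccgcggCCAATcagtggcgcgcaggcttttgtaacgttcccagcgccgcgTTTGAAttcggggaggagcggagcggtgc
PLK4, plus strand, chr4:127880919-127880942, lying after the start: cggcgggagattTTCAAAatggga
The PLK1 element begins at position −29 and its CCAAT box at −73, counted from the transcription start. In PLK4 the element begins at position 39 after the first of 3 annotated starts. Windows of 250 bases before to 50 bases after the start were searched on both strands for CHR, CCAAT and the cyclic AMP response core TGACGT. Of 35116 such human windows, 15.2% hold TTTGAA, 34.6% hold CCAAT and 7.98% hold TGACGT. PLK4 also holds TGACGT at −5 and, from another start, CCAAT at −86. A match describes the letters of a window, not binding. The motifs searched share no bases in the PLK1 stretch shown.

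PLK1 normalized counts were 3649 and 3171 in the DMSO libraries, 1885 and 2060.2 at 6 h, 1080.4 and 1015 at 9 h, and 672 and 666 at 12 h. Each group lay below the one before it with no overlap. The mean went from 3410.0 ± 338 (SD, n = 2) in DMSO to 669 ± 4.22 at 12 h. PLK1 fell against DMSO, with log2 changes of −0.79 ± 0.07 (SE) at 6 h (adjusted p = 1.23e-08, limma), −1.70 ± 0.07 at 9 h (4.27e-14) and −2.34 ± 0.07 at 12 h (1.39e-16). The last corresponds to a level 5.08-fold lower than in DMSO. Ranked from the most negative change among 14074 genes, PLK1 stood at 464, 87 and 64 at the 3 times.

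PLK4 had normalized counts of 1545 and 1553 in DMSO, 720.5 and 715 at 6 h, 406 and 413 at 9 h, and 285 and 274 at 12 h. Replicates lay within a few percent of each other, and no groups overlapped. PLK4 fell, with log2 changes of −1.11 ± 0.07 at 6 h (adjusted p = 1.18e-10, limma), −1.92 ± 0.07 at 9 h (1.09e-14) and −2.47 ± 0.07 at 12 h (9.65e-17), a 5.53-fold lower level. From the most negative change it stood at 141, 51 and 45.

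Both transcripts went on falling between the Nutlin-3a times. PLK1 changed by −0.91 ± 0.07 from 6 to 9 h (adjusted p = 1.04e-08, limma) and by −0.65 from 9 to 12 h (2.43e-06). PLK4 changed by −0.81 from 6 to 9 h (6.06e-08) and by −0.55 from 9 to 12 h (2.84e-05). In these fits, 33.6% of the 12 h log2 change of PLK1 and 44.9% of that of PLK4 was present at 6 h, and 72.5% and 77.7% at 9 h. The ratio of PLK4 to PLK1 normalized counts within a library was 0.424 and 0.490 in DMSO, 0.382 and 0.347 at 6 h, and 0.424 and 0.411 at 12 h. From 6 to 9 h, 4 members fell, namely PLK1, PLK4, GADD45A and GADD45B, where 9.9% of all tested genes fell and 8.52% rose. From 6 to 12 h PLK1, PLK4, GADD45A and GADD45B fell, 4 members, where 17.1% of all genes fell and 14.4% rose. From 9 to 12 h PLK1 and PLK4 fell, 2 members, where 2.92% of all genes fell and 1.08% rose. Groups did not overlap for 5 members from 6 to 9 h (60.8% of all genes), 6 from 6 to 12 h (66.6%) and 5 from 9 to 12 h (49.8%).

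**Figure D2:**
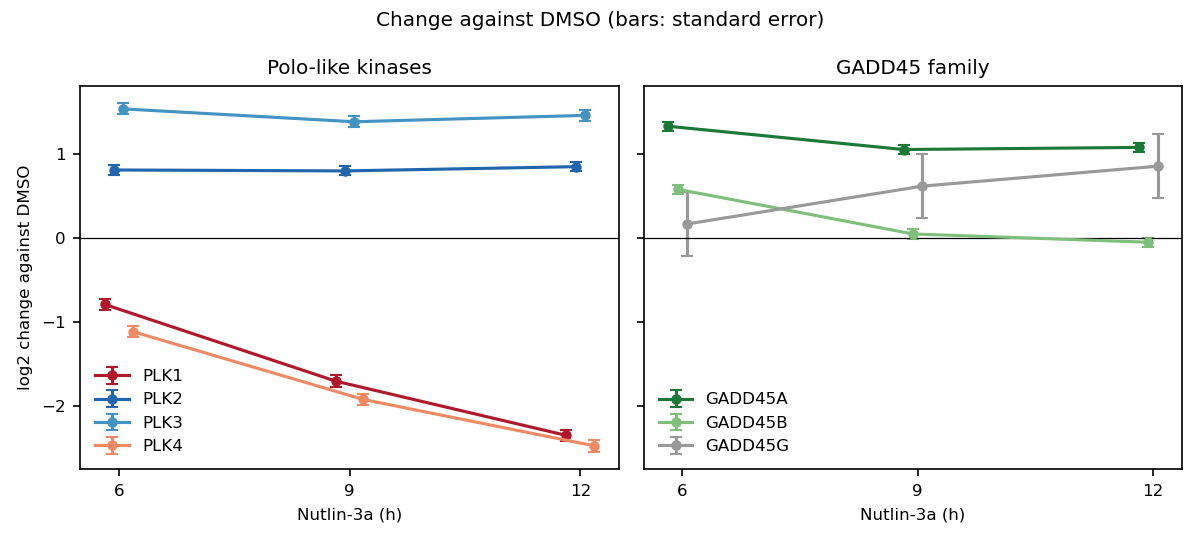
Log2 change of each member against DMSO at 6, 9 and 12 h of Nutlin-3a from the limma fit, with bars of 1 standard error. PLK4 and PLK1 reach −2.47 and −2.34 at 12 h, PLK3, GADD45A and PLK2 sit between 0.80 and 1.54 at each time, GADD45B is at 0.58 only at 6 h, and GADD45G has the widest bars.

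Genes that act with PLK1 in mitosis fell with it. Of 25 listed upstream activators, substrates and docking partners, 25 fell at 6 h, 24 at 9 h and 24 at 12 h, with median log2 changes of −0.72, −1.38 and −1.87. Over all tested genes the medians were −0.01, 0.01 and 0.01, and 20.6, 19.1 and 21.4% fell. The exception at 9 and 12 h was KIZ, a centrosomal substrate, at −0.02 and 0.02, singled out after its values were seen. AURKA, the kinase that phosphorylates the activation loop of PLK1, fell (log2 changes −0.85, −1.53 and −1.97) at the 3 times. BORA, the cofactor for that step, fell (log2 changes −1.02, −1.27 and −1.61). TPX2, a spindle protein that activates AURKA, fell (log2 changes −0.46, −1.20 and −1.83).

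Targets of PLK1 at mitotic entry also fell. CDC25C, the phosphatase that removes inhibitory phosphates from CDK1, fell (log2 changes −0.68, −1.60 and −2.42). CDK1 itself fell (log2 changes −0.49, −1.20 and −1.81) and its cyclin CCNB1 fell (−0.41, −1.08 and −1.66). FBXO5, an inhibitor of the anaphase-promoting complex that is destroyed after PLK1 marks it, fell (log2 changes −1.47, −2.05 and −2.40). FOXM1, a transcription factor of G2/M genes and a PLK1 substrate, fell (log2 changes −0.49, −0.92 and −1.37).

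Centriole genes around PLK4 moved less evenly. Of 18 listed genes, 15 fell and 1 rose at 6 h, 13 fell and 1 rose at 9 h, and 15 fell at 12 h, with medians of −0.51, −0.60 and −0.66. Among all tested genes, 20.6, 19.1 and 21.4% fell and 16.1, 16.2 and 18.5% rose. STIL, which binds and activates PLK4, fell (log2 changes −1.22, −1.83 and −2.31). SASS6, the cartwheel protein placed after PLK4 acts, fell (log2 changes −1.09, −1.30 and −1.74). The scaffolds that bring PLK4 to the centriole fell less, CEP152 by log2 changes of −0.78, −1.06 and −1.37 and CEP192 by −0.49, −0.60 and −0.61. Those that rose were CEP120, a daughter centriole protein, by 0.27 at 6 h, and BTRC, a ubiquitin ligase subunit that binds PLK4, by 0.16 at 9 h. Both were singled out after their values were seen. BTRC had fallen at 6 h (−0.29), and was at 0.09 with no call at 12 h. Its 9 h rise no longer passed without DMSO replicate 2 (0.14), and without 9 h replicate 1 (0.15) or replicate 2 (0.18). The same held without either 12 h library (0.16).

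PLK2 and PLK3 moved opposite to PLK1 and PLK4. The promoter of PLK2 is shown because it holds a TATA box, in capitals, which 8.29% of human windows hold when TATAAA and TATATAA are searched on the gene's strand.
PLK2, minus strand, chr5:58460087-58460186, ending at the base before the start: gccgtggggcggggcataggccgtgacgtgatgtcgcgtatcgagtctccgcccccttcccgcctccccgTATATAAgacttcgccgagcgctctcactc
The box begins at position −30. PLK2 also holds TGACGT at −77 and a p53 half-site at −132, a match that 6.63% of windows have. A full p53 site was in 0.0285% of windows and in none of those of the 6 members with an entry. The search allowed no mismatch and saw only these windows, so it cannot show that a gene lacks a p53 site. The window of PLK3 held no match to any motif searched, and PLK1 and PLK4 held no TATA form.

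PLK2 normalized counts were 1693 and 1792 in DMSO, 3138 and 2984 at 6 h, 2962 and 3111 at 9 h, and 3048 and 3245 at 12 h. Each Nutlin-3a library was above both DMSO libraries, and the 3 Nutlin-3a groups overlapped. PLK2 rose by 0.81 ± 0.05 at 6 h (adjusted p = 2.97e-10, limma), 0.80 ± 0.05 at 9 h (1.94e-10) and 0.85 ± 0.05 at 12 h (5.61e-11), or 1.76-, 1.74- and 1.81-fold. Between 6 and 12 h the difference was 0.04 on the log2 scale, with a 95% interval of −0.07 to 0.15 (adjusted p = 0.634).

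PLK3 had normalized counts of 614 and 540.4 in DMSO, 1626 and 1727 at 6 h, 1516 and 1498 at 9 h, and 1611 and 1566 at 12 h. The lowest Nutlin-3a library was at 1498, far above both DMSO libraries. PLK3 rose by 1.54 ± 0.07 at 6 h (adjusted p = 3.51e-13, limma), 1.39 ± 0.07 at 9 h (5.64e-13) and 1.46 ± 0.07 at 12 h (1.38e-13), or 2.91-, 2.61- and 2.75-fold. From the most positive change among 14074 genes, PLK3 stood at 95, 116 and 109, and PLK2 at 448, 411 and 414. The 9 h level differed from the 6 h level by −0.15 (adjusted p = 0.114), which became a call without DMSO replicate 1 (0.0179) or replicate 2 (0.0172). Between 6 and 12 h PLK3 differed by −0.08, with an interval of −0.21 to 0.06.

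Exons of PLK3 overlap TCTEX1D4, a gene on the opposite strand that encodes a dynein light chain family protein. TCTEX1D4 had normalized counts of 12.7 and 19.3 in DMSO and 43.8 to 62.2 in the Nutlin-3a libraries, and rose by 1.45, 1.64 and 1.81 on the log2 scale. Whether counting used the strand is not given in the sources used here, and reads of the 2 genes cannot then be told apart. PLK1 overlaps ERN2 in the same way, which stayed at 0.914 to 6.25.

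Partners of PLK2 and PLK3 did not move one way. Of 12 listed genes, 2 rose and 5 fell at 6 h, and 3 rose and 6 fell at both later times, with medians of 0.02, −0.01 and −0.03. For comparison, 16.1, 16.2 and 18.5% of all tested genes rose and 20.6, 19.1 and 21.4% fell. CDC25A, the phosphatase that PLK3 is reported to mark for turnover, fell (log2 changes −1.86, −2.15 and −2.66). FBXW7, a ubiquitin ligase receptor that PLK2 phosphorylates, rose by 0.79, 0.84 and 0.74. CIB1, a calcium-binding protein that binds PLK3, was at 0.11 at 6 h and rose by 0.20 at 9 h and 0.21 at 12 h. These CIB1 calls were lost without 9 h replicate 2 (0.19, adjusted p = 0.0560, limma) and without 12 h replicate 1 (0.17, adjusted p = 0.0706). TSC1, a PLK2 partner in mTOR control, was at −0.02, 0.14 and 0.10 and was not called. Its 9 h change became a call without DMSO replicate 2 (0.15, adjusted p = 0.0470, limma), with TMM scaling (0.16, 0.0356), with quantile normalization (0.19, 0.0167) and with edgeR (0.16, 0.0331), and its 12 h change with quantile normalization (0.16, 0.0350).

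The make-up of the kinase family turned over. Per kb of exon, PLK1 held 46.7 and 43.2% of the summed normalized count of the 4 kinases in the DMSO libraries, 23.5 and 25.2% at 6 h, 16.5 and 15.4% at 9 h, and 10.8 and 10.5% at 12 h. PLK4 went from 21.0 and 22.4% in DMSO to 4.86 and 4.59% at 12 h. PLK2 went from 21.6 and 24.3% to 48.9 and 51.1%, and PLK3 from 10.7 and 10.06% to 35.4 and 33.8%. Without any length, the ratio of PLK2 to PLK1 normalized counts was 0.464 and 0.565 in DMSO, 1.66 and 1.45 at 6 h, 2.74 and 3.07 at 9 h, and 4.54 and 4.87 at 12 h. No group overlapped another in this ratio. The ratio of PLK3 to PLK2 was 0.363 and 0.302 in DMSO and 0.482 to 0.579 in the Nutlin-3a libraries.

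**Figure D3:**
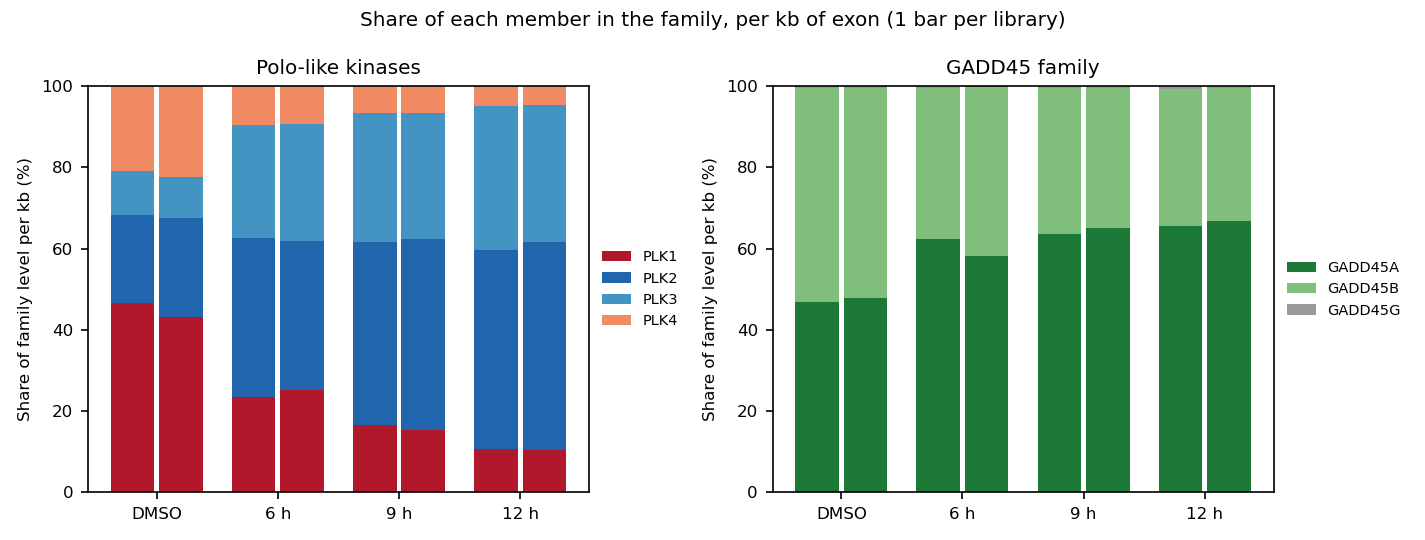
Share (%) of each member in the summed normalized count per kb of exon of its family, with 1 stacked bar for each of the 8 libraries. The PLK1 share shrinks from 46.7 and 43.2% in DMSO to 10.8 and 10.5% at 12 h while PLK2 and PLK3 widen, and GADD45A passes GADD45B from 6 h on.

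GADD45B and GADD45G are shown next with their promoters, because each holds a TATA box as PLK2 does, together with CCAAT boxes, all in capitals.
GADD45B, plus strand, chr19:2476027-2476126, ending at the base before the start: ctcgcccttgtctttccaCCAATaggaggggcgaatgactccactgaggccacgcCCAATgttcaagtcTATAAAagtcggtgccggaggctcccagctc
GADD45G, plus strand, chr9:89604912-89605011, ending at the base before the start: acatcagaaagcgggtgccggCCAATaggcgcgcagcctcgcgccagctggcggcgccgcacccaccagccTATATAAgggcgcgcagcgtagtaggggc
The boxes begin at −31 in GADD45B and −29 in GADD45G. The CCAAT boxes begin at −82 and −45 in GADD45B and at −79 in GADD45G. GADD45A had no promoter entry, so its promoter was not searched.

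GADD45A, on chromosome 1, had normalized counts of 1524 and 1556 in DMSO, 4045 and 3719.7 at 6 h, 3134 and 3271 at 9 h, and 3153 and 3366 at 12 h. All Nutlin-3a libraries lay above DMSO, and the 6 h pair lay above the 9 and 12 h libraries, which overlapped each other. GADD45A rose by 1.33 ± 0.05 at 6 h (adjusted p = 2.46e-13, limma), 1.06 ± 0.05 at 9 h (2.67e-12) and 1.08 ± 0.05 at 12 h (1.18e-12), or 2.52-, 2.08- and 2.12-fold. It then fell, by −0.28 from 6 to 9 h (adjusted p = 0.00111) and −0.25 from 6 to 12 h (0.00130). From 9 to 12 h the difference was 0.03 (0.904).

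GADD45B, on chromosome 19, gave 1758 and 1738 in DMSO, 2490.4 and 2756 at 6 h, 1828 and 1796 at 9 h, and 1686 and 1699 at 12 h. The 6 h pair stood above every other library, while the 9 h pair lay just above DMSO and the 12 h pair just below it. GADD45B rose by 0.58 ± 0.06 at 6 h (adjusted p = 6.58e-08, limma), with replicates 2490.4 and 2756 against a DMSO mean of 1748 ± 14.3. It was not called at 9 h (0.05, 95% interval −0.07 to 0.17, adjusted p = 0.517) or at 12 h (−0.05, −0.16 to 0.07, 0.544). It fell from 6 to 9 h (−0.53, adjusted p = 8.64e-07) and from 6 to 12 h (−0.63, 2.66e-08). The ratio of GADD45B to GADD45A normalized counts was 1.15 and 1.12 in DMSO, 0.616 and 0.741 at 6 h, and 0.535 and 0.505 at 12 h.

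GADD45G, on chromosome 9, was near the floor, with normalized counts of 12.7 and 8.59 in DMSO, 16.3 and 8.65 at 6 h, 15.9 and 17.4 at 9 h, and 22.1 and 17.7 at 12 h. These rest on 13 and 8 reads in the DMSO libraries and 27 and 17 at 12 h. The 6 h libraries overlapped DMSO, and the 9 and 12 h libraries lay above it. The change at 12 h was 0.86 ± 0.38 (95% interval 0.06 to 1.66, adjusted p = 0.0822, limma), which did not pass the threshold. At 6 and 9 h it was 0.17 (adjusted p = 0.769) and 0.62 (0.229), and the F test gave an adjusted p of 0.194. Single libraries moved these values. At 6 h the change was −0.25 without 6 h replicate 1, 0.59 without 6 h replicate 2, 0.43 without DMSO replicate 1 and −0.09 without DMSO replicate 2. Without DMSO replicate 2 it was 0.36 at 9 h. None of these passed the threshold. At this depth the 12 h interval holds both a change near 0 and one of the size seen in GADD45A.

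The order of levels per kb of exon in DMSO was GADD45B at a mean of 818, GADD45A at 744, PLK1 at 716, PLK2 at 365, PLK4 at 346, PLK3 at 166 and GADD45G at 8.06. PLK1 ranged from 666 to 767 and so overlapped GADD45A. At 12 h the order was GADD45A at 1576, GADD45B at 792, PLK2 at 659.9, PLK3 at 457, PLK1 at 141, PLK4 at 62.3 and GADD45G at 15.05. These use the union of GENCODE 29 exons. With the longest principal transcript in its place, PLK1 came first in DMSO at 1531, ahead of GADD45B at 1273 and GADD45A at 1029, and the 12 h order was unchanged. Transcript ends in these cells were not measured.

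Neither the partners of GADD45 proteins nor the p38 and JNK kinases moved one way. Of 23 listed genes, 3 rose and 7 fell at 6 h, 2 rose and 7 fell at 9 h, and 4 rose and 7 fell at 12 h, with medians of −0.07, −0.08 and −0.01. The shares of all tested genes were 16.1, 16.2 and 18.5% risen and 20.6, 19.1 and 21.4% fallen. CDK1, CCNB1 and CDKN1A, given above, are among the 23 listed. MAPK13, the delta form of p38, rose by 0.39, 0.37 and 0.37. MAP2K6, which activates p38, fell at 6 h (−1.06) and was at −0.31 and 0.18 afterwards. Its normalized counts were 64.5 and 69.8 in DMSO, 33.8 and 29.8 at 6 h, and 77.8 and 74.9 at 12 h.

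Other genes of this axis were mixed. Falls came in MAP3K5 (log2 changes −0.25, −0.36 and −0.43), ING1 (−0.46, −0.44 and −0.58) and NPM1 (−0.22, −0.32 and −0.42). MAPK11 was at 0.01, 0.25 and 0.33 and ERCC5 at 0.43, 0.46 and 0.46, both called as risen at 12 h only. Among the JNK genes, MAPK8 rose by 0.38 at 6 h only, and MAPK9 and MAPK10 were not called. These genes were singled out after their values were seen. MAP2K3, the other p38 activator named here, was at 0.01, 0.00 and 0.06, and MAPK14, the alpha form of p38, at −0.04, −0.12 and −0.11, and neither was called. MAPK14 was called without DMSO replicate 1, at 9 h (−0.16, adjusted p = 0.0162, limma) and at 12 h (−0.14, 0.0291). MAP3K4, which GADD45 proteins bind, was at 0.01 at 6 h and fell at 9 h (−0.18) and 12 h (−0.35). Its 9 h call was lost without 9 h replicate 2 (−0.09, adjusted p = 0.442, limma), and also without DMSO replicate 2 or any 6 or 12 h library (adjusted p from 0.0502 to 0.0540). PCNA, the replication clamp, was at 0.03 and −0.08 and fell at 12 h (−0.19), a call lost without 12 h replicate 1 (−0.15, adjusted p = 0.114). GADD45GIP1, a mitochondrial ribosome protein that binds GADD45 proteins, fell at 6 h (−0.20) and 9 h (−0.19). Without DMSO replicate 1 these values were −0.07 (adjusted p = 0.391, limma) and −0.07 (0.408). The calls were also lost without either library of the Nutlin-3a group compared, with adjusted p from 0.102 to 0.139.

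Stress and growth arrest regulators were mixed. Of 17 listed, 7 rose and 5 fell at 6 h, 3 rose and 4 fell at 9 h, and 4 rose and 4 fell at 12 h, with medians of 0.17, −0.03 and −0.01. Set beside them, 16.1, 16.2 and 18.5% of all tested genes rose and 20.6, 19.1 and 21.4% fell. PPP1R15A, also called GADD34 and unrelated in sequence to GADD45, rose by 0.39 at 6 h and was at −0.03 and −0.14 afterwards. The 9 and 12 h values became calls without DMSO replicate 2, at −0.13 (adjusted p = 0.0329, limma) and −0.24 (2.15e-05). DDIT3, also called GADD153 or CHOP, rose by 0.58, 0.48 and 0.29, and its 12 h call was lost without 12 h replicate 1 (0.27, adjusted p = 0.0537). ATF3, a stress transcription factor, rose by 1.84, 1.24 and 1.03, with normalized counts from 49.8 and 50.5 in DMSO to 188.9 and 175.8 at 6 h.

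Transcription factors of this list differed in direction. EGR1 fell (log2 changes −0.62, −0.40 and −0.28). MYC, a repressor of GADD45A, fell (log2 changes −0.66, −0.72 and −0.84). FOXO3 rose by 0.22 at 6 h and was at −0.01 and −0.06 afterwards. Factors added after their values were seen were CEBPB, which rose by 0.45, 0.42 and 0.50, and the NF-kB and SMAD factors. NFKB1 was at −0.15 at 6 h and fell at 9 h (−0.21) and 12 h (−0.30), and RELA was at 0.05, 0.01 and −0.01 with no call. SMAD3 fell at 6 h (−0.20) and was at −0.04 and −0.05 afterwards, and SMAD4 was at −0.06, −0.05 and 0.00 with no call. Without DMSO replicate 1, calls were gained for NFKB1 at 6 h (−0.17, adjusted p = 0.0324, limma) and for SMAD4 at 6 h (−0.16, 0.0232) and 9 h (−0.15, 0.0425). The 9 h call of NFKB1 was lost without 9 h replicate 2 (−0.18, 0.0985) and with quantile normalization (−0.15, 0.0567).

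Immediate early genes were compared because PLK2, PLK3 and GADD45B are often grouped with them. Of 29 tested, 13 rose and 4 fell at 6 h, 7 rose and 5 fell at 9 h, and 10 rose and 3 fell at 12 h, with medians of 0.13, −0.02 and 0.06. Over all tested genes, 16.1, 16.2 and 18.5% rose and 20.6, 19.1 and 21.4% fell. The immediate early list shares EGR1, KLF4, ATF3 and MYC with the previous one. Changes within the list ran from −1.79 to 4.34 at 6 h. FOS was at −0.24, −0.70 and −0.47 with no call, on low normalized counts of 17.4 to 38.7. JUNB was at 0.07, −0.11 and 0.06, and IER2 at 0.07, −0.14 and −0.06, also with no call. At 9 h FOS became a call without DMSO replicate 1 (−0.89, adjusted p = 0.0415, limma) and with quantile normalization (−0.78, 0.0367), and IER2 without DMSO replicate 2 (−0.17, 0.0138) and with a minimum mean of 50 (−0.14, 0.0464). JUN rose by 0.19 at 6 h and was at 0.06 and −0.08 afterwards. BTG2, an antiproliferative p53 target singled out after its values were seen, rose by 4.34, 4.29 and 4.15. FOSL1, a FOS relative, fell (log2 changes −0.33, −0.54 and −0.63).

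**Figure D4:**
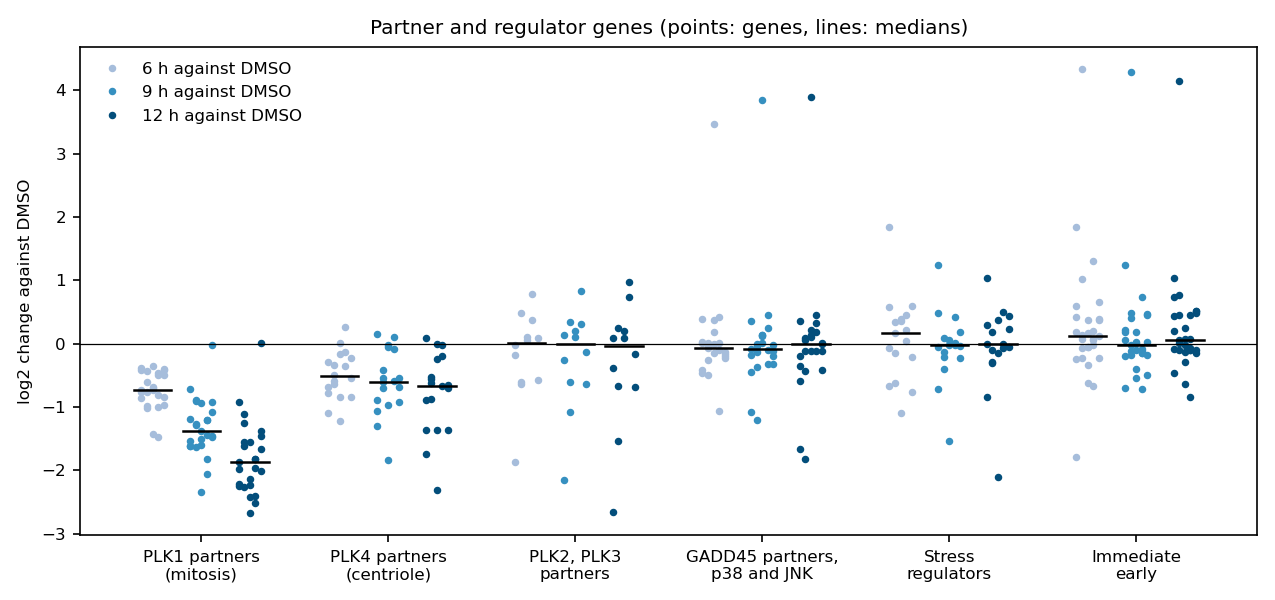
Log2 change against DMSO of every tested gene in the 6 lists, at 6, 9 and 12 h, with 1 point per gene and a line at the list median. The PLK1 list centres on −0.72, −1.38 and −1.87 and the PLK4 list on −0.51, −0.60 and −0.66, whereas the medians of the other 4 lists lie between −0.08 and 0.17.

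The genes with the most similar course to each member were named by the root mean square (RMS) difference of centred log2 values over the 8 libraries, among 11461 genes with a mean of at least 50. Those nearest PLK1 were CDC20, the activator of the anaphase-promoting complex (RMS 0.0572), AURKB, the kinase of the chromosomal passenger complex (0.0759), and GTSE1, a microtubule-binding protein (0.0789). The median over all genes was 0.899 for PLK1, 0.936 for PLK4, 0.378 for PLK2 and 0.649 for PLK3. For GADD45A, GADD45B and GADD45G it was 0.530, 0.292 and 0.445. Nearest PLK4 were CDCA5, which protects cohesin (0.0507), RFC3, a clamp loader subunit (0.0597), and BUB1B, a spindle checkpoint kinase-like protein (0.0726).

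Nearest PLK2 were SERTAD1, a CDK4-binding protein (RMS 0.0578), CCDC9B (0.0619) and FBXW7 (0.0624), the ligase receptor named above. Nearest PLK3 were MIR34AHG, the host transcript of miR-34a (0.0890), EFNB1, an ephrin (0.106), and PHLDA3, an AKT inhibitor (0.106). Nearest GADD45A were PPM1D, the phosphatase WIP1 (0.0654), FAM46A (0.0818) and DDIT4, an mTOR inhibitor (0.0873). Nearest GADD45B were SNX30, a sorting nexin (0.0567), ARHGEF2 (0.0586), and CHST3, a chondroitin sulfotransferase (0.0636). For GADD45G the nearest genes lay farther away, CBLN3 at 0.193, CDK20 at 0.1996 and MZF1 at 0.201. Likeness over 8 libraries of one experiment is a description of these libraries.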

How the data were processed

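The 7 members, the gene lists and the naming rule were chosen with earlier results of these data known. STAR, DESeq2 and the build hg19 are named in the submitters' processing notes, without versions. How reads were counted, with which annotation and strand setting, is not given in the sources used here. In the main table, the authors deposited normalized counts (a signal, reads divided by a size factor per library) of 18216 genes. Reads of 3 entries that name no gene held 28.2 to 29.1% of totals and were left out. Tables deposited by the authors from DESeq2 give a log2 fold change per gene, with a Wald score, p-value and adjusted p-value, and were used as an alternative. In the authors' deposited table the 12 h log2 change of PLK1 was −2.35, with the sign turned to Nutlin-3a over DMSO. Whole reads were recovered from 100% of values within 1e-06.

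Genes at 10 or more in at least 2 libraries (14074) were tested on log2(normalized count + 1), a scale that understates changes of low genes. All 8 libraries entered 1 fit in limma 3.58.1 (R 4.3.3) with an intensity trend, with 4 residual and 15.5 prior degrees of freedom. P-values were adjusted by Benjamini-Hochberg. The procedure was tested on simulated data with the same spread in every group, which does not cover the wider spread in DMSO. An exact permutation test of 2 against 2 cannot go below 0.333 and was not used. Normalized counts carry SD over n = 2, log2 changes SE. Floors cover counting error only. Alternatives included edgeR 4.0.16 and DESeq2 1.42.0 on recovered reads, other scalings, filters and pseudocounts, a replicate block, and leaving out each library. Genes were named by role from 6 lists, plus up to 2 called members per list that went against its majority at 12 h and the 3 nearest genes to each member. IER3 was not analysed here. Some genes that the rule names are not reported here. Names were matched to GENCODE 29 and RefSeq by symbol, not by coordinate, since both use GRCh38. RefSeq promoters were found for 6 of 7 members (8 windows, 3 of them of PLK4), all but GADD45A.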

Additional observations from a re-analysis of the deposited data

Results flagged for a closer look

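Differences between Nutlin-3a times were tested directly in the limma fit, and 10 of them passed the threshold among the members. Of all tested genes, 9.9% fell and 8.52% rose from 6 to 9 h. From 6 to 12 h the shares were 17.1 and 14.4%, and from 9 to 12 h 2.92 and 1.08%. PLK1 was lower at 9 h than at 6 h (−0.91 on the log2 scale), lower at 12 h than at 6 h (−1.56) and lower at 12 h than at 9 h (−0.65). PLK4 gave −0.81, −1.36 and −0.55 for the same pairs of times. GADD45A was lower at 9 h (−0.28) and 12 h (−0.25) than at 6 h. GADD45B was also lower than at 6 h, with −0.53 at 9 h and −0.63 at 12 h. Each time is a different pair of libraries, and exposure time cannot be told apart from harvest time.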

How the results depend on the processing

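Up to 21 alternatives were run for each member count, member change, named gene and share of all genes called. For those shares, 3 of the alternatives are given here. The counts of members called in each direction, 12 results, stayed within 1.5 times in all 246 alternatives. Members that fell from 6 to 9 h numbered 3 to 5, against 4, and the other counts did not move. Direction held for every member change that was called. Changes with no call could turn sign, as GADD45G at 6 h did (−0.25 to 0.59 over the alternatives). Of 851 alternatives for the 42 member changes, 846 kept the side of the threshold. The exceptions were PLK3 from 6 to 9 h (−0.15), which passed in a fit of those groups alone (adjusted p = 0.0159), with group weights (0.0409) and without either DMSO library, and GADD45A from 6 to 9 h (−0.28), which did not pass without the intensity trend (0.0550). Replicate numbers did not deviate together (correlations −0.152 to 0.0914 over 6 pairs of groups). These correlations cannot show whether libraries of the same number shared a culture or a day. With the replicate number as a block, 4 members rose and 2 fell at 6 h. At 9 and at 12 h, 3 rose and 2 fell with this block. Of all genes, 16.1% were called higher and 20.5% lower at 6 h with the block. The same shares were 16.2 and 18.9996% at 9 h, and 18.6 and 21.3% at 12 h. Without the trend, 4.24% of all genes rose and 5.26% fell from 6 to 9 h, against 8.52 and 9.9% with it, and from 9 to 12 h 0.213 and 1.02%, against 1.08 and 2.92%. With edgeR on the recovered reads, 16.9% of tested genes rose and 19.2% fell at 6 h, 18.1 and 18.2% at 9 h, and 21.4 and 20.02% at 12 h. The choice of gene length, added after the data had been seen, moved 19 of 28 family shares by more than the replicate SD. The call of CIB1 at 6 h was gained with quantile normalization (0.15, adjusted p = 0.0345) and that of MAP2K6 at 9 h without the trend (−0.31, 0.0332). GADD45G could not be tested with a minimum mean of 50, and its low reads limit what could be detected.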
